A study of Mus musculus with 4 samples.

Results

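The endoplasmic reticulum (ER) folding and secretion genes described here are 41 genes chosen by name for their function: chaperones, disulfide isomerases, stress sensors, and subunits of the translocon, the signal peptidase, the oligosaccharyltransferase and the ER-associated degradation machinery. All 41 were present among the 23418 gene symbols of the count table, and all 41 were among the 13075 symbols with enough reads to be tested. The samples were B cells, purified by sorting from the cervical lymph nodes, the nodes to which the salivary glands drain. BL/10 mice were the controls and NOD.B10 mice the strain of interest, with 2 RNA libraries sequenced from each. NOD.B10 mice, which carry the BL/10 H2 region in an autoimmune-prone NOD genome, serve as a model of Sjögren's disease, an autoimmune disorder of the salivary and lacrimal glands. No treatment is given in the labels, nor age, sex or pooling of animals, nor is it stated that libraries of the same strain represent different mice, so the p-values below rest on the spread between libraries alone, and that spread may be technical. The comparison asks how far the RNA levels of the ER machinery differ between the strains.

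Proteins that are secreted or placed in the plasma membrane enter the ER through the Sec61 channel, lose their signal peptide, receive N-linked sugars, fold with the help of chaperones and disulfide isomerases, and are returned to the cytosol for degradation when folding fails. When unfolded protein accumulates, the membrane sensors IRE1 (Ern1), ATF6 and PERK (Eif2ak3) start the unfolded protein response, which raises transcription of many of these genes. B cells use this machinery for the antigen receptor and MHC molecules, and enlarge it greatly when they become antibody-secreting plasma cells.

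Library totals ran from 19328803 to 29372751 reads. The libraries carried B cell RNA: Cd79a, a chain of the B cell receptor complex, had 1098, 1370, 1374 and 1345 CPM, read counts scaled to the same library total, in BL/10 replicates 1 and 2 and NOD.B10 replicates 1 and 2, the order used for every set of 4 values below. Of 12 B cell markers 1 was called, Fcer2a, a receptor of mature B cells, which rose (log2 fold change 0.57, adjusted p = 0.00287). The 12 summed to 21611 and 22877 CPM in BL/10 and to 26489 and 26165 CPM in NOD.B10. Markers of several other cell types differed between strains, though not all in the same way. T cell markers summed to 474 and 563 CPM in BL/10 and to 19.9 and 10.3 CPM in NOD.B10, with 14 of 15 lower. Erythroid markers summed to 187 and 297 CPM against 9.74 and 4.27 CPM, with 3 of 3 lower. Markers of the salivary gland, itself a secretory tissue, summed to 408 and 240 CPM against 14.5 and 47 CPM, with 2 of 6 lower. Of the tested markers of natural killer cells 5 of 5 fell, of mast cells 3 of 3 and of neutrophils 2 of 4. Most markers of macrophages and monocytes and of dendritic cells were not called, with 2 of 9 and 2 of 6 lower and 0 higher. Of stromal and endothelial markers 1 of 3 rose and 0 fell. Plasma cell markers varied between strains and between single libraries. Igj, the joining chain of polymeric antibody, had 608, 119, 14 and 7.21 CPM. Sdc1, a surface marker of plasma cells, had 19.8, 7.95, 5.34 and 5.29 CPM. The first BL/10 library was far above the second in both, and both BL/10 libraries lay above both NOD.B10 libraries. Of 12 plasma cell markers tested 3 fell (Prdm1, Tnfrsf17 and Creb3l2) and 0 rose, with a median log2 fold change of −0.20. In these 3 genes, too, both BL/10 libraries lay above both NOD.B10 libraries. None of the 12 was at 0 in both libraries of a strain. The summed level of the 12 was 1540, 884, 887 and 830 CPM, of which Igj alone gave 608, 119, 14 and 7.21 CPM. Creb3l2, Xbp1 and Derl3 are also among the other pathway genes described below. Cell cycle markers fell in 8 of 16 cases, their summed level being 436 and 508 CPM in BL/10 and 342 and 314 CPM in NOD.B10. In such bulk samples fewer cells of a type and less RNA per cell cannot be told apart, and the part of these cells in the results below was not tested.

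The promoters of several members carried the ER stress response element (ERSE), the DNA site through which ATF6, together with the CCAAT-binding factor NF-Y, is known to act. It was searched, on both strands, as CCAAT parted by any 9 bases from CCACG, in RefSeq windows (GRCm38.p6) running from 250 bases before to 50 bases after the transcription start. Windows were found for 32 of the 41 members. Of these, 8 (25%) held the site, against 37 of 27025 symbols (0.137%) in the whole promoter table. The members had been picked for this function, so the share is a description of the list. The sites are shown so that the strain comparison of the genes that hold them can be read beside their sequence. Capitals mark the CCAAT and CCACG ends, in Herpud1 the ATTGG and CCACG ends of a related site (ERSE-II, with 1 base between them), and in Pdia4 the CCAAT end and the CCAC that stands in place of CCACG. Each stretch is written 5′ to 3′ on the strand given.
Hspa5, chr2:34772015-34772053, plus strand: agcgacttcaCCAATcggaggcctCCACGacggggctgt
Hsp90b1, chr10:86705523-86705561, plus strand: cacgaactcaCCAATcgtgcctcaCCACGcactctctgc
Calr, chr8:84847065-84847103, plus strand: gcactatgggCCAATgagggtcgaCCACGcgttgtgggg
Canx, chr11:50325790-50325828, minus strand: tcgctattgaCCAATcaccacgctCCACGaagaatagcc
Dnajc3, chr14:118937817-118937855, plus strand: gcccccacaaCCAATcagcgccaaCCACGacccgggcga
Creld2, chr15:88819510-88819548, minus strand: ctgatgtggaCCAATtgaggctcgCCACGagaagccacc
Pdia6, chr12:17266481-17266519, plus strand: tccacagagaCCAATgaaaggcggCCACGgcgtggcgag
Syvn1, chr19:6046522-6046560, plus strand: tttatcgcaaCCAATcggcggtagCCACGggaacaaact
Herpud1, chr8:94386367-94386397, plus strand: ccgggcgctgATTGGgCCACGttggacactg
Pdia4, chr6:47813592-47813629, plus strand: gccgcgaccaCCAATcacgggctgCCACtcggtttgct

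All ERSE sites of the members lay upstream of the start. The nearest to it was that of Syvn1, whose last base stood 26 bases before the start, and that of Hspa5 ended 47 bases before it. In Hsp90b1, Creld2, Calr and Pdia4 the printed site reads on the strand opposite to the gene, and Hsp90b1 held a second site that is not printed. ERSE-II was found in 2 members, Herpud1 and Dnajb11, and in 12 of 27025 symbols (0.0444%). TGACGTG, the core of the element bound by XBP1 and ATF6, was found in 2 members, Hspa5 and Txndc5, and in 2.22% of symbols. The form with CCAC in place of CCACG was searched after the windows had been seen. It occurred in 12 of the 32 members and in 0.429% of symbols, the full sites included.

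Few of the ER genes differed between the strains. Summed over the 41 genes, CPM came to 0.635% and 0.646% of the scaled library size in BL/10 and to 0.617% and 0.631% in NOD.B10. That size includes the normalization factor of each library, so these are not shares of the raw reads. Both NOD.B10 values thus lay just below both BL/10 values. In CPM the sums were 6348, 6456, 6174 and 6314. Pdia4 alone went from a mean of 302 to 143 CPM, a drop about as large as the gap between the strains in the sum. The gap is therefore no measure of a shift of the whole list. In the edgeR quasi-likelihood test over all genes, with Benjamini-Hochberg adjusted p under 0.05 taken as the call, 3 of 41 were called, 1 higher (Sdf2l1) and 2 lower (Pdia4 and Sec61b) in NOD.B10. This is 7.32% of the members against 15.2% of all tested genes, of which 6.55% were called higher and 8.63% lower. At an unadjusted p under 0.05 there were 8 members (19.5%) against 26.8% of all tested genes. The median log2 fold change of the members, always given as NOD.B10 over BL/10, was −0.02, beside −0.0032 for all tested genes. The median of its absolute size was 0.16, beside 0.23. Without the first BL/10 library, which had the highest Igj and Sdc1 values, the median log2 fold change was −0.03 for the members and 0.0068 for all tested genes.

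For most members the interval was narrow, though it too rests on the spread between libraries, which may be technical. The 95% interval of the fold change lay within 1.5-fold in either direction for 32 of 41 genes and within 2-fold for 38. The exceptions at 2-fold were Pdia4 and Sdf2l1, which were called, and Dnajb9, whose NOD.B10 libraries disagreed. Both NOD.B10 libraries lay above both BL/10 libraries in 7 members and below in 13, while 27.9% and 27.7% of all tested genes did so. The median gap between the 2 libraries of a strain was 0.18 on the log2 scale in BL/10 and 0.10 in NOD.B10. These gaps are between single libraries, whereas the median absolute strain difference of 0.16 is between groups of 2. The sizes are therefore not directly comparable.

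**Figure D1:**
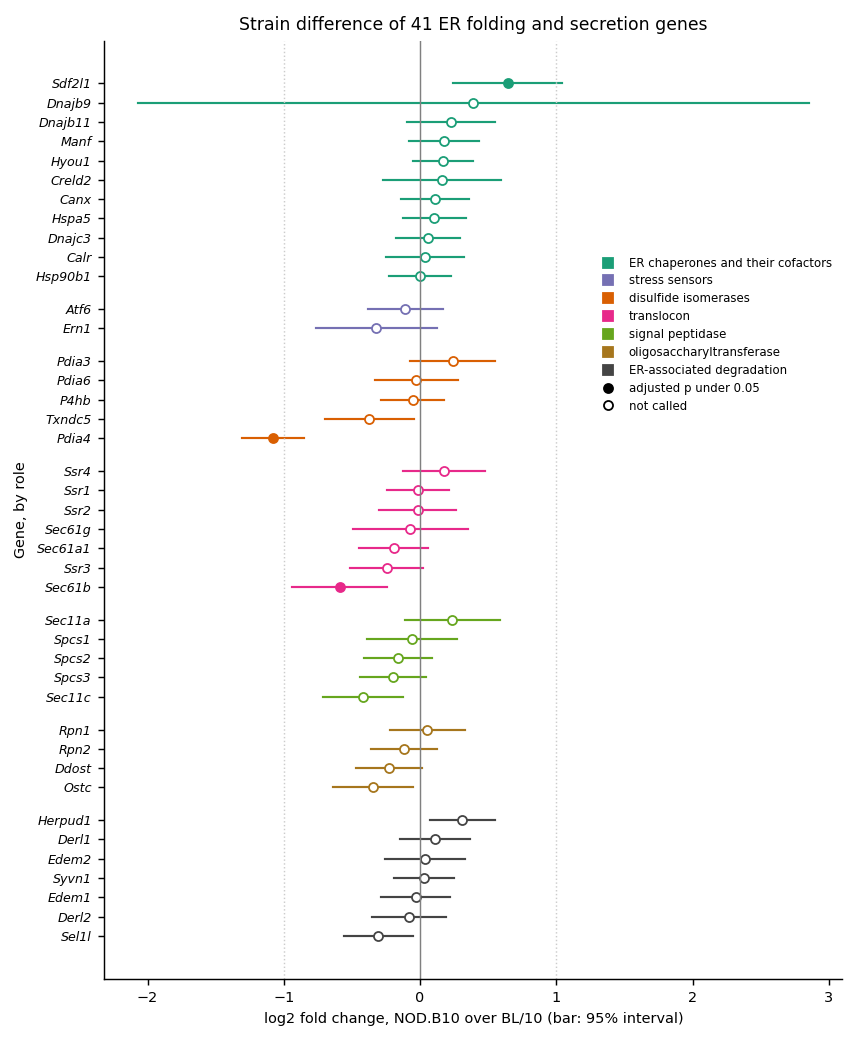
Log2 fold change (x axis, NOD.B10 over BL/10) of the 41 ER genes (y axis, grouped and coloured by role) with 95% intervals from the edgeR fit; filled circles are called and dotted lines mark a 2-fold change. Pdia4 at −1.08, Sec61b at −0.59 and Sdf2l1 at 0.64 are the called genes, and the interval of Dnajb9 runs from −2.07 to 2.85.

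Of the 11 chaperones and cofactors 1 was called. Their median log2 fold change was 0.16 and 10 of 11 were positive; with upper-quartile factors or library size alone 11 were. The first BL/10 library had the lowest of the 4 values for 7 of the 11 and the highest for 0. Without that library 6 of 11 were positive and the median was 0.01.

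Sdf2l1 (chromosome 16, 17130138 to 17132383), an ER-resident partner of the chaperone BiP, had 13.4, 17.6, 25.3 and 23.1 CPM. Both NOD.B10 values lay above both control values. The means were 15.5 ± 2.99 and 24.2 ± 1.52 CPM (SD, n = 2), a 1.56-fold rise (log2 fold change 0.64, standard error (SE) 0.185, adjusted p = 0.0316). The call ended when the first BL/10 library was left out (adjusted p = 0.175) or when the first NOD.B10 library was (adjusted p = 0.104). In these fits the log2 fold change was 0.46 and 0.57.

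Hspa5 (chromosome 2, 34772090 to 34776529), which encodes BiP, the central HSP70 of the ER lumen and a standard readout of the unfolded protein response, had 469, 558, 546 and 559 CPM. The strains overlapped, with the first BL/10 library alone lower than the rest. The log2 fold change, 0.11, was not called (SE 0.108, adjusted p = 0.604) and had a 95% interval of −0.13 to 0.34. Hsp90b1, the ER HSP90 also called GRP94, had 496, 508, 463 and 538 CPM, and its log2 fold change was −0.0036 with an interval of −0.23 to 0.22. Calr and Canx, the lectin chaperones that hold glycoproteins during folding, likewise had their lowest value in the first BL/10 library, Calr with 495, 653, 565 and 613 CPM and Canx with 342, 425, 409 and 419 CPM. Neither was called (adjusted p = 0.901 and 0.612).

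Hyou1, a nucleotide exchange factor for BiP, had 231, 225, 252 and 260 CPM, a gap without overlap that was not called (log2 fold change 0.17, adjusted p = 0.33). The same pattern of no overlap without a call held for Manf, a secreted stress-induced factor with 67.1, 75, 80.1 and 80.3 CPM, and for Dnajc3, a cochaperone that also inhibits PERK, with 111, 110, 116 and 114 CPM. The cochaperone Dnajb11 and the stress-induced Creld2 overlapped, with log2 fold changes of 0.22 and 0.16. Dnajb11 was called higher without the second BL/10 library (log2 fold change 0.46, adjusted p = 0.0209), and stood at 0.013 when the first was left out (adjusted p = 0.972).

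Dnajb9, or ERdj4, a cochaperone and a well-known target of the IRE1 branch, was the most variable member. It had 54.1, 38.8, 88.3 and 34.2 CPM, so that the NOD.B10 libraries held both the highest and the lowest value. They differed by 1.37 on the log2 scale, more than any other pair of libraries of 1 strain in the list. The log2 fold change, 0.39, was not called (SE 0.66, adjusted p = 0.807). The estimate with the first NOD.B10 library left out was −0.46 (adjusted p = 0.129), and without the second it was 0.92 (adjusted p = 2.28e-06).

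**Figure D2:**
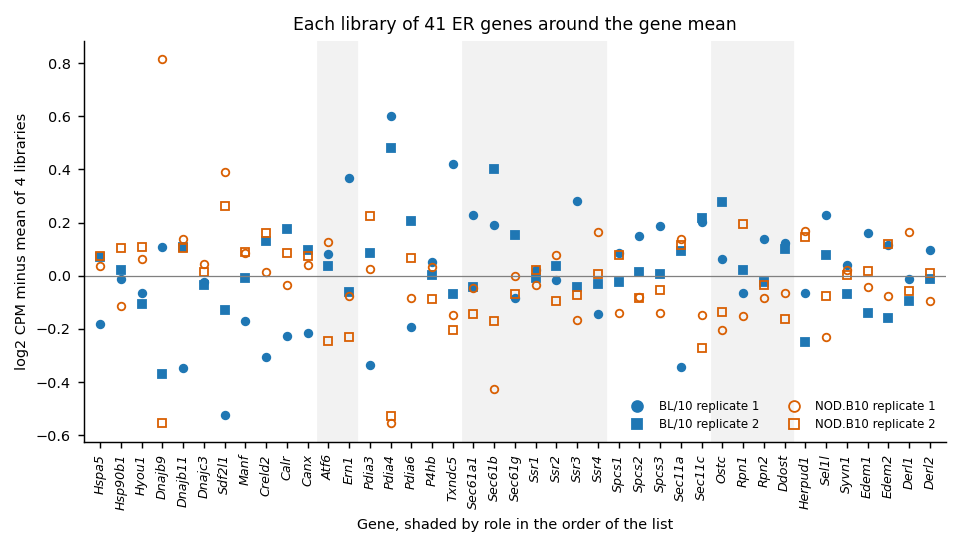
Log2 CPM of every library around the mean of its 4 libraries (y axis) for the 41 ER genes (x axis, in the order of the roles, with alternate roles shaded); circles are replicate 1 and squares replicate 2, filled blue for BL/10 and open orange for NOD.B10. The strains separate clearly for Pdia4, while Dnajb9 has both extremes in NOD.B10 and the first BL/10 library is lowest for 7 of 11 chaperones.

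The stress sensors were not called. Atf6, the transcription factor that is cleaved and released from the ER membrane, had 183, 177, 189 and 146 CPM, with overlapping strains (log2 fold change −0.11, 95% interval −0.38 to 0.17). Ern1, the kinase and nuclease IRE1, had 18.9, 14, 13.9 and 12.5 CPM. Its NOD.B10 values lay below both controls by a small margin, at −0.32 on the log2 fold scale (SE 0.206, adjusted p = 0.365), and the highest value was in the first BL/10 library. DESeq2 called 0 of these 2 genes, and edgeR's unadjusted p was under 0.05 for 0 of them.

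Among the disulfide isomerases, Pdia4 fell to about 0.47 of its control level. Pdia4, or ERp72 (chromosome 6, 47796141 to 47813512), an isomerase with several thioredoxin-like domains, had 314, 289, 142 and 144 CPM. Both NOD.B10 libraries were far below both controls and lay close together. The means were 302 ± 17.8 and 143 ± 1.83 CPM (SD, n = 2), a 2.11-fold fall (log2 fold change −1.08, SE 0.106, adjusted p = 1.23e-05). The call held in all 13 alternative settings, where the log2 fold change ran from −1.15 to −1.02 and the largest adjusted p was 9.46e-05.

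None of the other 4 isomerases was called by edgeR or DESeq2, and 1 of them, Txndc5, had an unadjusted p under 0.05. Pdia3, or ERp57, which works with the lectin chaperones, had 215, 288, 276 and 316 CPM (log2 fold change 0.24, adjusted p = 0.331), and was called higher without the second BL/10 library (log2 fold change 0.46, adjusted p = 0.00341) but stood at 0.041 when the first, the lowest of the 4, was left out (adjusted p = 0.886). Pdia6 had 107, 141, 115 and 128 CPM, and P4hb, the classical protein disulfide isomerase, had 171, 166, 169 and 155 CPM. The strains overlapped for all 3. The intervals of these 3 genes ran from −0.33 at the lowest to 0.55 at the highest, apart from the interval of Pdia4, −1.31 to −0.85, though the difference between genes was not tested. Of the sites searched, Pdia6 held the full ERSE, and Pdia3 and Pdia4 the form ending in CCAC.

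Reads of both strains were aligned to mm10, the C57BL/6J genome, and whether sequence differences of the NOD genome in the Pdia4 exons affect its count was not tested. The other genes near Pdia4 were looked at after its value was seen. Of 6 tested genes within 200 kb, all zinc finger genes, 0 were called by edgeR and 0 by DESeq2, and 1 had an unadjusted p under 0.05. Zfp398 stood at 52 ± 0.593 and 50.4 ± 0.485 CPM (log2 fold change −0.05). The 1 gene with such a p was the scarcely expressed Zfp786, at 0.704 and 0.0777 CPM (log2 fold change −3.25, adjusted p = 0.0743). The microRNA gene Mir704, which lies within Pdia4, had 26 reads in all.

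Txndc5, an isomerase abundant in antibody-secreting cells, had 308, 219, 207 and 199 CPM. The first BL/10 library stood apart from the other 3. That library also had the highest values of Igj and Sdc1, 608 and 19.8 CPM, and whether this is linked to its Txndc5 value was not tested. The log2 fold change of Txndc5, −0.37 (SE 0.148), was not called (adjusted p = 0.132). Without the second BL/10 library, which leaves the first as the only control, the gene was called lower (log2 fold change −0.61, adjusted p = 4.47e-05). With the first left out instead, the log2 fold change shrank to −0.11 (adjusted p = 0.666).

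**Figure D3:**
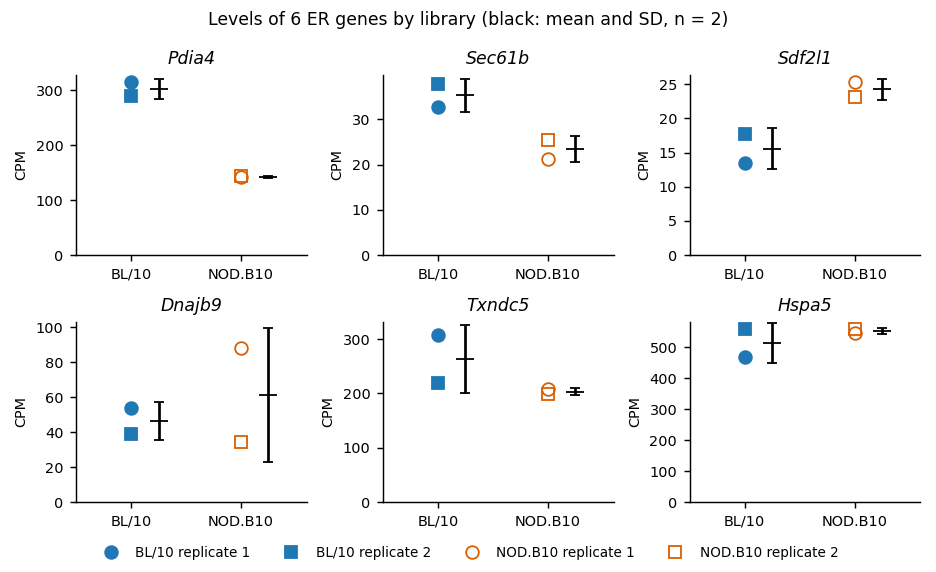
CPM (y axis, from 0) of 6 ER genes in each library, by strain (x axis), with mean and SD of 2 libraries in black. Pdia4 is near 300 in BL/10 and near 143 in NOD.B10, Sec61b and Sdf2l1 separate by less, and Dnajb9, Txndc5 and Hspa5 were not called.

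In the translocon, Sec61b alone of 7 genes was called. Sec61b (chromosome 4, 47474661 to 47483233), the small beta subunit of the channel, had 32.8, 37.9, 21.4 and 25.5 CPM. The strains did not overlap. The means were 35.3 ± 3.64 and 23.4 ± 2.93 CPM (SD, n = 2), a fall to 0.664 of control (log2 fold change −0.59, SE 0.16, adjusted p = 0.0238). The call ended when the second BL/10 library was left out (adjusted p = 0.0734) or when the first NOD.B10 library was (adjusted p = 0.141). Of the 2 other tested genes within 200 kb, Tgfbr1 and the mannosyltransferase gene Alg2, 0 were called by edgeR and 0 by DESeq2, and 1, Tgfbr1, had an unadjusted p under 0.05.

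The other channel subunits did not show a change of that size. Sec61a1, the pore-forming subunit, had 226, 187, 187 and 174 CPM (log2 fold change −0.19, adjusted p = 0.338), with an upper limit of 0.06 and a lower limit of −0.45 on its interval. It was called lower without the second BL/10 library (log2 fold change −0.33, adjusted p = 0.041), and stood at −0.052 with the first, the highest of the 4, left out (adjusted p = 0.864). Sec61g, the gamma subunit, had 13, 15.3, 13.8 and 13.2 CPM and overlapped (log2 fold change −0.07). The interval of Sec61b, −0.94 to −0.24, overlapped those of both, and the difference between subunits was not tested.

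The translocon-associated protein complex, encoded by Ssr1 to Ssr4, assists the entry of many signal sequences. Ssr1 and Ssr2 were close to control, with log2 fold changes of −0.02 each and intervals of −0.24 to 0.21 and −0.30 to 0.27. Ssr3 had 201, 161, 148 and 158 CPM (log2 fold change −0.25, adjusted p = 0.229) and was called lower without the second BL/10 library (log2 fold change −0.41, adjusted p = 0.0126). When the first, again the highest, was left out it stood at −0.078 (adjusted p = 0.791). Ssr4 had 33.8, 36.6, 41.9 and 37.5 CPM (log2 fold change 0.17, adjusted p = 0.489).

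Of the 5 signal peptidase genes 0 were called by edgeR or DESeq2, and 1 had an unadjusted p under 0.05. That gene was Sec11c, one of the alternative catalytic subunits, with 42.1, 42.6, 33.1 and 30.4 CPM. The strains were apart and the control libraries were nearly equal (42.4 ± 0.342 and 31.7 ± 1.92 CPM, log2 fold change −0.42, SE 0.136), but the adjusted p of 0.0563 missed the threshold. With no filter on low counts it was called (adjusted p = 0.0382). Sec11a, the other catalytic subunit, had 27.9, 37.8, 39 and 38.4 CPM (log2 fold change 0.24, adjusted p = 0.399), with the first BL/10 library low. When that library was left out Sec11a stood at 0.034 (adjusted p = 0.942) and Sec11c at −0.43 (adjusted p = 0.0966). The difference between these catalytic subunits was not tested. The accessory subunits Spcs1, Spcs2 and Spcs3 had log2 fold changes of −0.06, −0.16 and −0.20.

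The oligosaccharyltransferase genes, whose product moves the preassembled sugar onto asparagine, were not called either (0 of 4 by edgeR and by DESeq2, 1 with an unadjusted p under 0.05). Ostc, a subunit that links the enzyme to the channel, had 43.3, 50.1, 35.9 and 37.7 CPM (log2 fold change −0.34, SE 0.136, adjusted p = 0.118). Ddost had 112, 110, 98.2 and 91.6 CPM (log2 fold change −0.23, adjusted p = 0.224). Both had strains that did not overlap. Rpn1 and Rpn2, the ribophorins, had log2 fold changes of 0.05 and −0.12.

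In ER-associated degradation 0 of 7 genes were called by edgeR or DESeq2, and 2 had an unadjusted p under 0.05, 1 in each direction. Herpud1, a stress-induced scaffold of the degradation complex, had 158, 139, 186 and 183 CPM, with both NOD.B10 libraries higher (log2 fold change 0.31, SE 0.111, adjusted p = 0.0825). It was called higher without the first BL/10 library (log2 fold change 0.41, adjusted p = 0.0196), and stood at 0.21 when the second was left out (adjusted p = 0.264). Sel1l, the partner of the ubiquitin ligase Syvn1, had 155, 140, 113 and 125 CPM, with both NOD.B10 libraries lower (log2 fold change −0.31, SE 0.116, adjusted p = 0.102). It was called lower without the second BL/10 library (log2 fold change −0.39, adjusted p = 0.026), and stood at −0.23 when the first was left out (adjusted p = 0.304). Syvn1 itself, also called HRD1, had 281, 261, 278 and 275 CPM and an interval of −0.19 to 0.25. The mannosidase-like genes Edem1 and Edem2 and the derlin genes Derl1 and Derl2 lay between −0.08 and 0.11 in log2 fold change, and all 4 overlapped between strains.

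The 8 members with an ERSE shown above lay in a narrow range, from −0.03 for Pdia6 to 0.16 for Creld2 in log2 fold change, with a median of 0.05 and 6 of 8 positive. The 24 members whose window held no ERSE had a median of −0.06, with 9 positive. That order rested on the first BL/10 library: with it left out 2 of the 8 were positive, with a median of −0.03, and 10 of the 24, with a median of −0.02. Herpud1 and Dnajb11, which held ERSE-II, had 0.31 and 0.22. None of these 10 genes was called by edgeR or DESeq2, and of them Herpud1 alone had an unadjusted p under 0.05 (0.0154). Among all tested genes edgeR called 15.2%, and 26.8% had such an unadjusted p. The motif matches describe letters in a window and were not tied to binding.

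Scaled to the deposited gene length as well as to library size (RPKM), the members spanned a wide range of levels. Calr was highest at a mean of 299 RPKM over the 4 libraries, followed by Hspa5 at 204, Hsp90b1 at 182 and Pdia3 at 104. Pdia4 was the sixth at 89.6, next to Txndc5 at 89.1 and Herpud1 at 89. Ern1 was lowest at 3.73, below Creld2 at 11.8 and Derl2 at 13.9. Of the 3 called genes, Sec61b had 53.2 and Sdf2l1 17.9 RPKM, so the calls came from the upper, middle and lower part of the range.

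Of 158 other tested genes of the pathway, 8 rose and 7 fell, 9.49% against 15.2% of all tested genes, with a median log2 fold change of −0.01. Among 17 stress signalling genes 2 rose and 2 fell. Eif2ak3, the sensor kinase PERK, had 273, 183, 107 and 109 CPM and fell to 0.474 of control (228 ± 63.5 and 108 ± 1.93 CPM, SD, n = 2, log2 fold change −1.08, SE 0.175, adjusted p = 0.00395). The first BL/10 library was well above the second, and both were above NOD.B10. The call held in all 13 alternatives, with log2 fold changes between −1.35 and −0.76. Creb3l2, a transcription factor that is activated like ATF6, had 17, 12.2, 7.67 and 5.25 CPM (log2 fold change −1.18, adjusted p = 0.00744).

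Trib3, a pseudokinase gene induced by ATF4 and CHOP, had 1.82, 1.01, 7.1 and 7.79 CPM and rose 5.22-fold (log2 fold change 2.38, SE 0.37, adjusted p = 6.22e-04). Its level was low in both strains. Nfe2l1, a membrane-bound transcription factor of the ER that controls proteasome genes, rose from 179 ± 10.3 to 245 ± 5.89 CPM (log2 fold change 0.45, adjusted p = 0.0103). With the second NOD.B10 library left out the call was lost (adjusted p = 0.0624). The transcription factors in between were not called: Xbp1, the target of IRE1, had 133, 103, 119 and 123 CPM (interval −0.25 to 0.32), Ddit3, which encodes CHOP, had 6.15, 7.56, 8.29 and 7.95 CPM, and Atf4 had 163, 151, 132 and 126 CPM (log2 fold change −0.28, adjusted p = 0.113). Atf4 was called lower when the second BL/10 library was left out (adjusted p = 0.0499). The Xbp1 count sums spliced and unspliced transcripts and gives no measure of IRE1 activity.

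**Figure D4:**
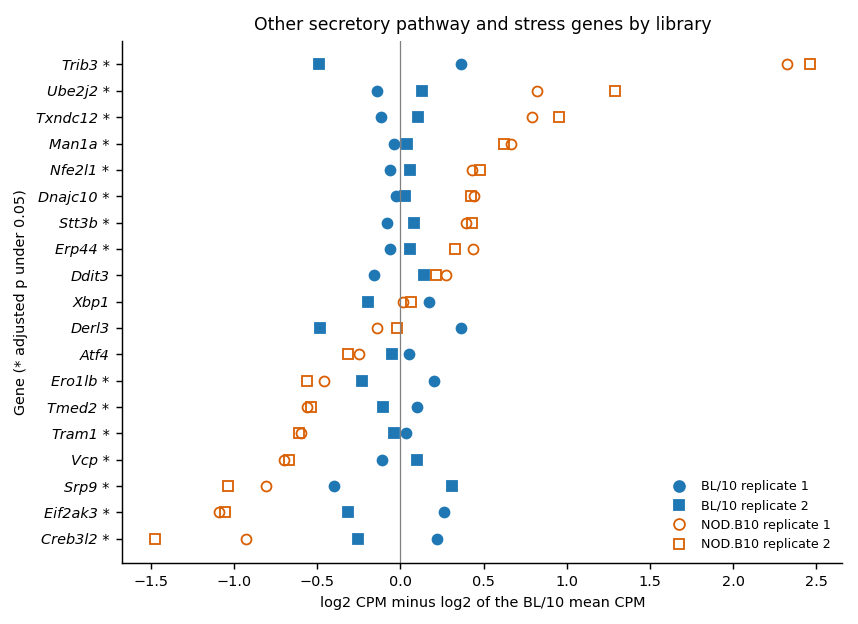
Log2 CPM of each library minus log2 of the BL/10 mean CPM (x axis) for the 15 called genes of the wider pathway, marked with *, and for Ddit3, Xbp1, Derl3 and Atf4, which were not called; symbols are circles for replicate 1 and squares for replicate 2, filled for BL/10 and open for NOD.B10. Trib3 lies farthest to the right, and Creb3l2, Eif2ak3 and Srp9 farthest to the left.

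Among 33 other folding enzymes 3 rose and 1 fell. Txndc12, a small thioredoxin-like protein of the ER, had 21.8, 25.4, 40.9 and 45.8 CPM (log2 fold change 0.88, SE 0.15, adjusted p = 0.00136). Dnajc10, a reductase that prepares proteins for degradation, and Erp44, which retains immature secretory proteins, rose with log2 fold changes of 0.43 and 0.38. Both calls were lost without either NOD.B10 library (adjusted p = 0.0873 and 0.0594 for Dnajc10, 0.25 and 0.0674 for Erp44), and that of Erp44 also when the first BL/10 library was left out (adjusted p = 0.129) or when replicate number entered as a block (adjusted p = 0.065). Ero1lb, an oxidase that recharges the disulfide isomerases, had 333, 247, 211 and 197 CPM (log2 fold change −0.51, adjusted p = 0.028). The call ended when the first BL/10 library was left out (log2 fold change −0.28, adjusted p = 0.109).

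Among 26 genes of targeting and translocation 2 fell and 0 rose. Tram1, a membrane protein beside the Sec61 channel, had 379, 360, 245 and 242 CPM, with close replicates in both strains (log2 fold change −0.60, SE 0.1, adjusted p = 0.00107). Its call held in all 13 alternatives. Srp9, of the signal recognition particle, had 20.3, 33.1, 15.2 and 13 CPM (log2 fold change −0.92, adjusted p = 0.0209), a call that ended when the second BL/10 library was left out (log2 fold change −0.53, adjusted p = 0.114). Among 24 N-glycosylation genes Stt3b, a catalytic subunit of the oligosaccharyltransferase, rose from 323 ± 25.6 to 431 ± 8.08 CPM (log2 fold change 0.41, adjusted p = 0.0145), which was lost without either NOD.B10 library (adjusted p = 0.0623 and 0.0826).

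Of 27 other degradation genes 2 rose and 1 fell. Man1a, a mannosidase that trims N-linked sugars, had 783, 827, 1276 and 1238 CPM (log2 fold change 0.64, SE 0.0952, adjusted p = 4.22e-04). Vcp, the ATPase that pulls substrates out of the membrane, had 135, 157, 89.9 and 91.8 CPM (log2 fold change −0.69, SE 0.118, adjusted p = 0.0014). Both calls held in all 13 alternatives. The ubiquitin-conjugating enzyme gene Ube2j2 rose from 5.36 ± 0.7 to 11.3 ± 2.54 CPM (adjusted p = 0.0125), a call that ended when the second NOD.B10 library was left out (adjusted p = 0.0829). Of 31 genes of ER to Golgi transport Tmed2, a cargo receptor, was the 1 that fell, from 54 ± 5.44 to 36.9 ± 0.473 CPM (adjusted p = 0.0124), a call that ended when the first BL/10 library was left out (adjusted p = 0.0551). Derl3, the derlin of secretory cells, had 6.89, 3.84, 4.87 and 5.29 CPM and was not called (adjusted p = 0.917).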

How the data were processed

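The authors deposited 1 table of raw read counts per gene symbol with a gene length in bases, for 2 BL/10 and 2 NOD.B10 libraries. HISAT2 2.1.0, featureCounts, Subread 1.6.5 and SAMtools 1.3 are the tools in the submitters' processing notes, which name mm10 as build. The annotation, strand setting and handling of reads with several alignments are not given in the sources used here, so members that overlap another gene (such as Syvn1 with Mrpl49, Derl2 with Mis12 and Spcs1 with Glt8d1) carry uncertain counts. The deposited counts were tested with edgeR 4.0.16 in R 4.3.3 (TMM factors, filterByExpr with minimum count 10 and minimum total 15, robust glmQLFit, glmQLFTest, two-sided) over 13075 genes, with Benjamini-Hochberg adjustment over all of them. CPM uses TMM-scaled library sizes. The SE is the size of the unshrunk log2 fold change over the root of F, and the 95% interval is built from it with the test's degrees of freedom. Alternatives were RLE, upper-quartile or no factors, no filter or a stricter one, DESeq2 1.42.0, limma-voom 3.58.1, non-robust dispersion, a replicate block and leaving out each library in turn; where 1 library remains it is assumed to vary like the other strain. Positions are 1-based RefSeq positions on GRCm38.p6. The members and lists were chosen with earlier results of these data known. All 41 members are named. Of each list of other pathway genes up to 3 called genes per direction with the smallest p are named, besides Xbp1, Atf4, Ddit3, Eif2ak3 and Derl3. Igj, Fcer2a, Mir704 and the genes near the called members were picked after their values were seen.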

Additional observations from a re-analysis of the deposited data

How the results depend on the processing

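Of the 41 members, Pdia4 was called in every one of the 13 alternatives, and Sdf2l1 and Sec61b in 11 each. With RLE, upper-quartile or no factors, the stricter filter, DESeq2, limma-voom, non-robust dispersion and the replicate block the same 3 members were called as in the report. With no filter 4 members were called lower, Txndc5 and Sec11c in addition. Leaving out 1 library gave 0 to 3 members higher and 1 to 5 lower, and 4 to 8 higher and 6 to 13 lower among the other pathway genes; over all genes it gave 586 to 993 higher and 1010 to 1228 lower. The cause was not tested beyond the loss of a library. Hsp90b1 turned positive with upper-quartile factors (0.0020) and library size alone (0.0040). No scaling moved the median of all genes by over 0.1 in log2.

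Several members changed sign when 1 library was left out, none of them called in the full data. Their log2 fold changes ran from −0.017 to 0.23 for Hspa5, −0.12 to 0.090 for Hsp90b1, −0.46 to 0.92 for Dnajb9, −0.042 to 0.39 for Creld2, −0.15 to 0.24 for Calr, −0.039 to 0.26 for Canx, −0.31 to 0.066 for Atf6, −0.21 to 0.18 for Pdia6 and −0.13 to 0.0045 for P4hb. They ran from −0.19 to 0.040 for Sec61g, −0.043 to 0.0023 for Ssr1, −0.12 to 0.066 for Ssr2, −0.17 to 0.035 for Spcs1, −0.13 to 0.21 for Rpn1, −0.037 to 0.080 for Syvn1, −0.18 to 0.13 for Edem1, −0.10 to 0.18 for Edem2 and −0.016 to 0.22 for Derl1. For Xbp1 the range was −0.14 to 0.24 and for Derl3 −0.45 to 0.40.

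The replicate numbers are labels only, and the replicate 1 minus replicate 2 differences of the strains correlated at −0.02 across 13075 genes, so the numbers were not taken to pair the libraries. With the replicate block 1 member was called higher and 2 lower, as without it, and 7 other pathway genes higher and 8 lower. Over all genes the block gave 760 higher and 1042 lower, against 857 and 1129.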

Other observations

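Outside the members, 7 tested genes carried an ERSE in a promoter window: Acacb, Adcy3, Alg12, Derl3, Hnrnpa3, Pan2 and Xlr3b. Of the 15 tested genes with the site, members included, 0 were called by edgeR, 0 by DESeq2 and 0 had an unadjusted p under 0.05. Over all tested genes edgeR called 15.2%, and 26.8% had such an unadjusted p. Alg12, a mannosyltransferase of N-glycan assembly, stood at −0.22 on the log2 fold scale (SE 0.165, adjusted p = 0.448), and Derl3 at −0.08 (SE 0.333). The widest intervals were those of the scarcely expressed Acacb, −2.42 to 0.86, and Xlr3b, −2.61 to 0.36.

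Near Sdf2l1, 1 of 11 tested genes within 200 kb was called, beside 15.2% of all tested genes. Serpind1, a serpin gene that is mainly known from liver, rose from 4.07 ± 0.166 to 9.83 ± 0.61 CPM (SD, n = 2, log2 fold change 1.27, SE 0.261, adjusted p = 0.00489). Both genes lie on chromosome 16, and whether they share a cause was not tested.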
